A study of Mus musculus with 8 samples.

Results

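Presynaptic terminals store transmitter in small vesicles and release it when calcium enters. This account follows 39 genes of that machinery, chosen by symbol from a list of vesicle, SNARE and active zone genes, among 47643 gene rows of the deposited table. All 39 were found and all passed the filter on low counts. By role they were 7 genes of SNARE proteins and their recycling, 8 synaptotagmins and complexins, 11 genes of vesicle membrane and vesicle-bound proteins, 8 of the active zone and of Rab3 effectors, 3 of membrane retrieval and 2 that load vesicles with glutamate.

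RNA was sequenced from tissue labelled spinal cord of 8 C57BL/6 mice, 1 library per mouse, in a study of the role of Arf1 in neurons. The product of Arf1 is a small GTPase of the Golgi, where it brings vesicle coats to the membrane. In the labels 4 mice are heterozygous and 4 homozygous, and tamoxifen was injected intraperitoneally at 100 mg/kg to delete Arf1. The controls are thus heterozygous mice, not wild type. Mice were aged 2 to 10 months, and neither the age nor the sex of a single animal, nor the Cre driver with the cells in which it acts, is given in the labels.

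Release works as a cycle. SNARE proteins of vesicle (Vamp) and plasma membrane (Snap25, Stx1a) zip together and fuse the membranes, synaptotagmins sense calcium, complexins hold the assembled SNAREs ready, and large active zone scaffolds place vesicles beside calcium channels. NSF and its SNAP adaptors (Napa, Napb) take the used SNARE complexes apart, and dynamin, amphiphysin and synaptojanin help to recover the membrane. Several steps use related genes in different neurons: Vamp1, Syt2 and Slc17a6 (the vesicular glutamate transporter VGLUT2) are known for spinal cord, brainstem and other subcortical neurons, and Vamp2, Syt1 and Slc17a7 (VGLUT1) for cerebral cortex.

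The libraries held 26321522 to 37879426 expected counts. Arf1 was at 334, 296, 322 and 303 CPM (counts scaled for library size, with edgeR's TMM factors) in heterozygous replicates 1 to 4 and 307, 22.5, 22.8 and 39.9 CPM in replicates 1 to 4 labelled homozygous. The library labelled homozygous replicate 1 thus had Arf1 at the heterozygous level, against its label. Counts of members called are given with all 8 libraries and with 7, leaving it out. For many single genes the log2 fold change of only 1 of these comparisons is given. Homozygous replicate 3 had 2.44% ribosomal bases and 92.36% mapped reads, against 0.1% to 0.34% and 98.33% to 98.53% in the others, and homozygous replicate 4 an RNA integrity number of 8 against 9.

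The tissue label met the data only in part, which bears on genes that differ between brain regions. Hox genes of groups 5 to 13, which mark the cord, were present in every library, with 20 of 27 above 0 in all 8 and 1 at 0 in all, and they summed to 82.5, 94.98, 153 and 117 CPM in heterozygous replicates 1 to 4 and 125, 54.9, 73.9 and 127 CPM in replicates 1 to 4 labelled homozygous. Yet 6 of 6 genes of cerebral cortex and hippocampus were present in all 8 libraries too. Tbr1, a transcription factor of cortical neurons, stood at 90.0 to 144 CPM, and the 6 summed to 436, 420.0, 346 and 306 CPM in the heterozygous libraries and 309, 368, 438 and 335 CPM in those labelled homozygous. Of 5 striatal genes, 5 were above 0 in all 8 libraries and summed to 391 and 443 CPM in the libraries labelled homozygous replicates 1 and 2, against 79.3 to 173 CPM in the other libraries. The 3 cerebellar genes summed to 0.532 to 3.76 CPM. These region lists were chosen after values were seen. Slc6a5, the glycine transporter of cord and hindbrain neurons, ranged from 24.1 to 91.3 CPM and was highest in heterozygous replicates 3 and 4.

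**Figure D1:**
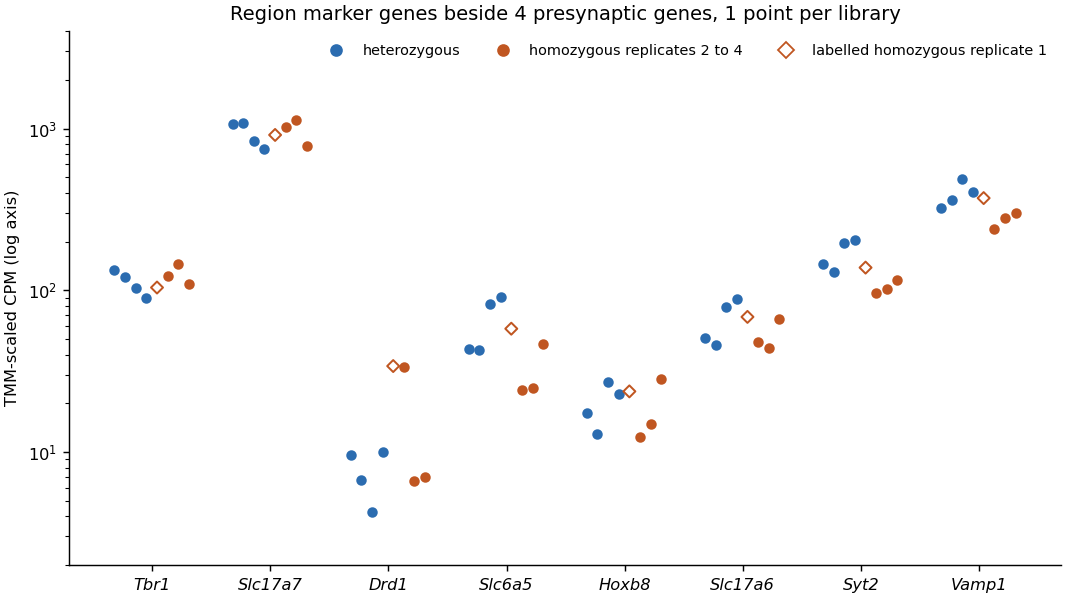
TMM-scaled CPM on a log axis for 4 genes that mark regions and 4 presynaptic genes, 1 point per library in the order heterozygous replicates 1 to 4, then replicates 1 to 4 labelled homozygous (open diamond: replicate 1). Tbr1 of the forebrain is present beside Hoxb8 of the cord in all 8 libraries, Drd1 of the striatum stands high in the libraries labelled homozygous replicates 1 and 2, and Slc17a6 and Slc6a5 are highest in heterozygous replicates 3 and 4.

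The levels of the 39 genes spanned a wide range. In TPM (transcript levels corrected for length, so that genes can be compared), the highest median over the 8 libraries was that of Snap25, the plasma membrane SNARE, at 2410.1 TPM. It was followed by Syp (synaptophysin, a main membrane protein of the vesicle) at 1096, Vamp2 at 912, Dnm1 (the neuronal dynamin) at 679, Cplx1 at 633 and Syt1 at 600.0 TPM. Snap25, at 2099 to 2954 TPM, lay above Syp, at 924 to 1186 TPM, in every library and without overlap. Vamp2, at 859.6 to 949.7 TPM, lay above Dnm1 in the same way. From Dnm1 down, the range of each gene overlapped that of the next, as for Dnm1 at 620.2 to 714 TPM and Cplx1 at 512 to 687 TPM. The lowest medians were those of Slc17a6 at 24.1, Rims2 (an active zone scaffold) at 17.8 and Sv2c at 17.3 TPM. Counts of a member in a library ran from 1093 to 120543. Together the 39 genes took 1.95% to 2.20% of all counts.

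**Figure D2:**
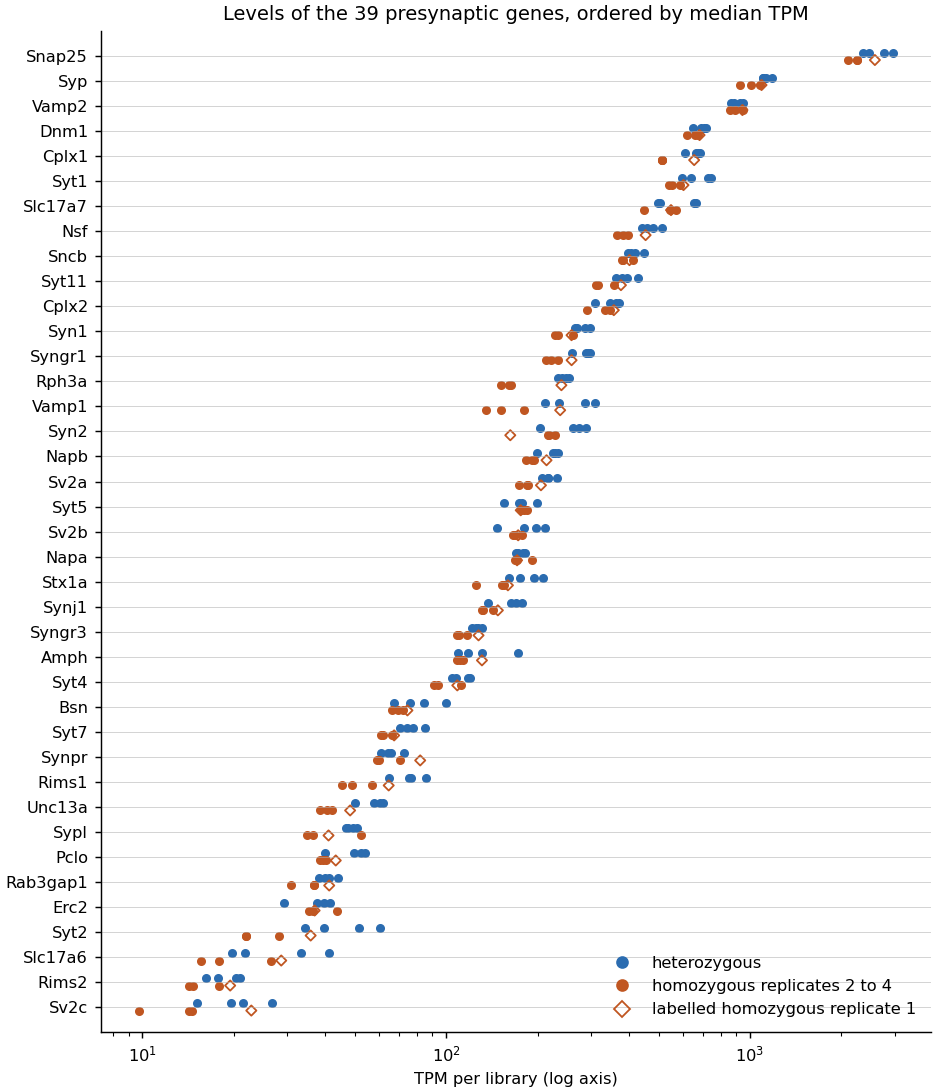
TPM of each of the 39 genes in each of the 8 libraries on a log axis, ordered by median, with heterozygous libraries drawn above and those labelled homozygous below each line (open diamond: replicate 1). Snap25 leads with a median of 2410.1 TPM and Sv2c is last with 17.3 TPM; on this scale the median log2 fold change of all genes was -0.17 in the 7 libraries, so most points of homozygous replicates 2 to 4 lie to the left.

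Among heterozygous mice the genes differed in how steady they were. Syngr3 (synaptogyrin) had the smallest coefficient of variation in CPM, 2.08%, followed by Sypl at 2.47%, Nsf at 2.52% and Rab3gap1 at 2.63%. The most variable were Slc17a6 at 31.8%, Syt2 at 21.9%, Amph at 21.1%, Sv2c at 19.8%, Slc17a7 at 17.9% and Vamp1 at 17.4%. Of these 6, Slc17a6, Syt2, Sv2c and Vamp1 had their highest heterozygous values in replicates 3 or 4, the libraries with the most Slc6a5, and Amph and Slc17a7 in replicates 1 or 2. The part that the mix of regions in a library had in this spread was not tested.

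No member passed the test when all 8 libraries were compared. edgeR's quasi-likelihood test at an adjusted p of 0.05 called 0 of 39 higher and 0 lower, against 0% of 16511 genes, while 8 of 39 members (20.5%) and 16.8% of all genes had an unadjusted p under 0.05. DESeq2 called 1 member lower, Syt2, against 2.54% of the genes it gave an adjusted p, and limma-voom 0. The members' median log2 fold change (homozygous over heterozygous) was -0.03, with 13 positive and 26 negative, against 0.0015 for all genes. In 0 of 39 members did the groups not overlap, against 9.28% of all genes. In whole tissue, fewer cells of a type and less RNA per cell cannot be told apart. Each animal has its own number in the titles, and no animals are paired in the labels.

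With 7 libraries, Rph3a alone passed. Of 39 members 0 were called higher and 1 lower, against 0.55% and 0.67% of 16560 genes, or 1.22% in either direction. An unadjusted p under 0.05 was found for 7 of 39 (17.9%) and for 19.5% of all genes, and the median log2 fold change was -0.04 against 0.0027. DESeq2 called Rph3a, Syt2 and Vamp1 lower, against 4.09% of such genes, and Syt5 higher, against 2.63%. On the log2 TPM scale limma called 10 of 39 members lower, a larger share than the 12.5% of all genes. The members' median log2 fold change on that scale was -0.25, against -0.17 for all genes. The groups did not overlap for 5 members (12.8%), against 18.5% of all genes: Vamp1, Syt2, Rims1 and Rph3a lay lower (4, against 8.78% of all genes) and Syt5 higher (1, against 9.76%). By edgeR the share with a small p was thus near that of all genes, and in CPM the share without overlap was below it. For 35 of 39 members, in either comparison, the 95% interval of the change lay within 1.5-fold in both directions, and the exceptions were Vamp1, Syt2, Sv2c and Slc17a6.

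**Figure D3:**
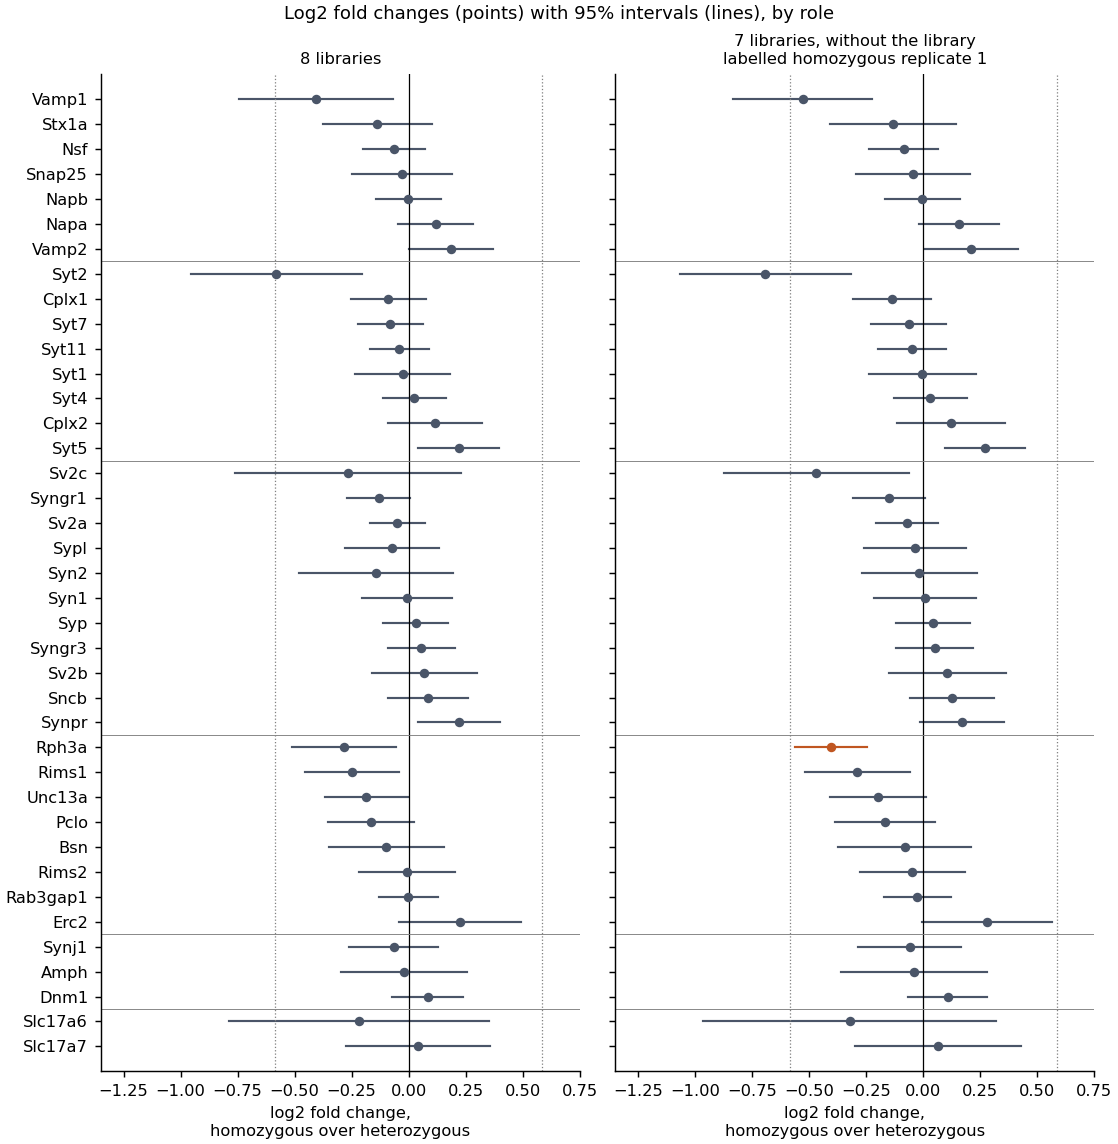
Log2 fold change (homozygous over heterozygous, points) with its 95% interval (lines) for the 39 genes, with all 8 libraries on the left and 7 on the right; gray lines separate the roles, from SNARE proteins at the top to glutamate loading at the bottom, and dotted lines mark 1.5-fold. Rph3a, in orange, is the 1 gene past an adjusted p of 0.05, and the intervals of Vamp1, Syt2, Sv2c and Slc17a6 are the 4 that cross a dotted line.

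Among the active zone genes and Rab3 effectors, 1 of 8 passed in the 7 libraries. Of the 8, 7 had a negative log2 fold change (median -0.13), against 8201 of all 16560 genes (median 0.0027). Rph3a encodes rabphilin, a vesicle protein that binds Rab3 and calcium, and lies on the minus strand at chr5:120940499-121010092 (GRCm38, GENCODE M21). It stood at 577, 544, 572 and 544 CPM in heterozygous replicates 1 to 4 and at 406, 458 and 404 CPM in homozygous replicates 2, 3 and 4. All 3 were below the lowest heterozygous library, while the library labelled homozygous replicate 1, at 569.6 CPM, lay within the heterozygous range, as its Arf1 did. Rph3a thus fell from 559 ± 17.6 to 423 ± 30.8 CPM (SD, n = 4 and 3), a log2 fold change of -0.40 (SE 0.07, edgeR adjusted p = 0.0368). With all 8 libraries the change was -0.28 (SE 0.10, adjusted p = 0.218) by edgeR and did not pass.

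The Rph3a call rests on few libraries. Of the 19 alternatives, the authors' 6 libraries and the 7 without heterozygous replicate 1 were the same fit, counted under both names. It held in 12 of 19 alternatives and was lost, by edgeR, without heterozygous replicate 2 (adjusted p = 0.0756), 3 (0.0703) or 4 (0.0787), without homozygous replicate 2 (0.132) or 3 (0.0721), and with Xist (0.0775) or the Hox genes (0.0676) as a covariate; its log2 fold change stayed between -0.62 and -0.38.

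Start regions of members were read for a REST-bound element, RE1, since REST is a repressor that keeps presynaptic genes silent outside neurons. The search was chosen after values were seen, and it took TTCAGCACC and GGACAGCGC with 2 free bases between them, on both strands, with at most 3 mismatches of 18 scored letters, in the 250 bases before each RefSeq start (GRCm38.p6). RefSeq windows matched 32 of 39 members, and Snap25, Syt4, Syt5, Syt7, Rims2, Syngr3 and Vamp2 had no entry. Of the 32, 2 held a match, against 0.104% of 27025 genes. They were Syn1, with 2 mismatches, and Rph3a, the 1 gene called, with 3 mismatches in 1 of its 3 windows, 75 bases before that start. This Rph3a window lies inside the GENCODE bounds of the gene (chr5:120940499-121010092), so the RefSeq start it precedes is an internal one. The windows of Rph3a (minus strand, chr5:121009539-121009788) and Syn1 (minus strand, chrX:20920919-20921168) are shown with the match in capitals. Beside them are those of Syt2 (plus strand, chr1:134646362-134646611) and Vamp1 (plus strand, chr6:125215331-125215580), the 2 members with the most negative log2 fold changes. The closest stretches of Syt2 and Vamp1 had 5 and 6 mismatches. A match describes letters and is not a shown binding site.
Rph3a: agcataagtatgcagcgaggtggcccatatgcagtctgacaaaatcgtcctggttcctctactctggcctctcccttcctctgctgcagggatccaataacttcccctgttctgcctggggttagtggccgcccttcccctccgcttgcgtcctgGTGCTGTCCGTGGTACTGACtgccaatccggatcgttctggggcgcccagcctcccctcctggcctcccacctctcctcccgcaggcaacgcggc
Syn1: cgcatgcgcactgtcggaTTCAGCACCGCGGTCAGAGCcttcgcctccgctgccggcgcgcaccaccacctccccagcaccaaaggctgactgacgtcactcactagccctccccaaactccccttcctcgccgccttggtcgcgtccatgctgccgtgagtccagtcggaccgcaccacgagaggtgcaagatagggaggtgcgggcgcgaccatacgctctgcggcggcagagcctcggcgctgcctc
Syt2: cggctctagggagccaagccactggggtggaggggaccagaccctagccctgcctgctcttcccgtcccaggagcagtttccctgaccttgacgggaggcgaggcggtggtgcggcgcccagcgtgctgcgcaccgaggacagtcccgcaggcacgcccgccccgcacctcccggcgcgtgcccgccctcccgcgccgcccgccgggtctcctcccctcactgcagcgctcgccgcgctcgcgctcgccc
Vamp1: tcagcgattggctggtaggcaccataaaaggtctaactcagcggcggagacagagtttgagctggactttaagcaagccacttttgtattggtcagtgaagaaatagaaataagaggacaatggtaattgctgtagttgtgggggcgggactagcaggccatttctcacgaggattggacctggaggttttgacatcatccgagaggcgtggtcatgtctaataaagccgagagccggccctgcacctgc
Syn1, whose match had fewer mismatches than that of Rph3a, was at 514, 534, 485 and 445 CPM in heterozygous replicates 1 to 4 and 475, 482, 571 and 439.6 CPM in replicates 1 to 4 labelled homozygous, with a log2 fold change of 0.01 (SE 0.10, adjusted p = 0.972) in 7 libraries by edgeR. The 2 genes with a match thus differed in their values, and the element was not tested as a cause of either.

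Rims1, which encodes a scaffold that docks vesicles and binds calcium channels, stood at 207, 191, 165 and 175 CPM in the heterozygous libraries and 168, 164, 157 and 131 CPM in replicates 1 to 4 labelled homozygous. Replicates 2 to 4 lay below every heterozygous library, the nearest of them by less than 1 CPM. Its log2 fold change was -0.29 (SE 0.10, adjusted p = 0.165) in 7 libraries by edgeR's test and did not pass. Unc13a (Munc13-1, which primes vesicles) was at 274, 271, 227 and 241 CPM and 228, 229.7, 236 and 196 CPM, with overlapping groups and a log2 fold change of -0.19 (SE 0.08, adjusted p = 0.284) in 8 libraries by edgeR. Erc2, a scaffold that binds RIM proteins, had the 1 positive value of its role: it was at 138, 146, 104 and 121 CPM and 132, 175, 154 and 133 CPM, and 0.28 (SE 0.13, adjusted p = 0.267) in 7 libraries by edgeR. The giant scaffolds Bsn (bassoon) and Pclo (piccolo) were at 432 ± 72.5 and 281 ± 34.7 CPM in heterozygous and 404 ± 36.9 and 251 ± 6.21 CPM in all 4 libraries labelled homozygous (SD, n = 4 and 4). Rims2 and Rab3gap1, a regulator of Rab3, were at 50.0 ± 4.57 and 95.5 ± 2.51 CPM against 49.8 ± 6.03 and 95.4 ± 5.69 CPM.

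Among synaptotagmins and complexins, 0 of 8 passed in either comparison, and Syt2 had the most negative log2 fold change of the 39 genes. Syt2 encodes the fast calcium sensor of many cord and brainstem terminals and lies on the plus strand at chr1:134646677-134762593. It was at 145, 130.2, 197 and 205 CPM in heterozygous replicates 1 to 4 and 138, 96.3, 102 and 116 CPM in replicates 1 to 4 labelled homozygous. Homozygous replicates 2 to 4 lay below all heterozygous libraries, and the library labelled homozygous replicate 1 lay between heterozygous replicates 2 and 1. The change was -0.58 (SE 0.17, adjusted p = 0.157) with 8 and -0.69 (SE 0.16, adjusted p = 0.0791) with 7 libraries, and neither passed edgeR's test. With the cortex genes as a covariate Syt2 passed in both (edgeR adjusted p = 0.0257 and 0.0164, against 1.18% and 2.0% of genes called lower), and by DESeq2 too (0.0144 and 0.000529), but not with the Hox genes as a covariate (0.239 and 0.163, with log2 fold changes of -0.46 and -0.52).

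Slc6a5 varied with Syt2: both were highest in heterozygous replicates 3 and 4 and lowest in homozygous replicates 2 and 3, and the part of region in the values of Syt2 was not tested beyond these covariates. Syt5, another vesicle synaptotagmin, stood at 113, 123, 108 and 103 CPM and 116, 131, 146 and 129 CPM. Its values in homozygous replicates 2 to 4 lay above all heterozygous ones, and the change of 0.27 (SE 0.08, adjusted p = 0.114) in 7 libraries did not pass by edgeR, though it did with the cortex covariate (adjusted p = 0.0437, against 1.32% of genes called higher). With 8 libraries the groups overlapped, and the change of Syt5 was 0.22 (SE 0.08, adjusted p = 0.222) by edgeR. Syt1, the fast sensor of forebrain synapses, was at 1623 ± 193 CPM in heterozygous and 1594 ± 119 CPM in all 4 libraries labelled homozygous (SD, n = 4 and 4). Of the slower or vesicle-trafficking synaptotagmins, Syt4 was at 243 ± 13.6 and 248 ± 12.1 CPM, Syt7 at 287 ± 12.5 and 272 ± 18.6 CPM and Syt11 at 920.0 ± 35.6 and 894 ± 26.8 CPM. For these 4 genes the means differed by less than the larger of the SDs of the groups. Cplx1 was at 782, 724, 826 and 732 CPM and 788, 700.0, 735 and 655 CPM with overlapping groups and a log2 fold change of -0.14 (SE 0.08, adjusted p = 0.35) in 7 libraries by edgeR. Its relative Cplx2 was at 961 ± 80.9 and 1039 ± 116 CPM.

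**Figure D4:**
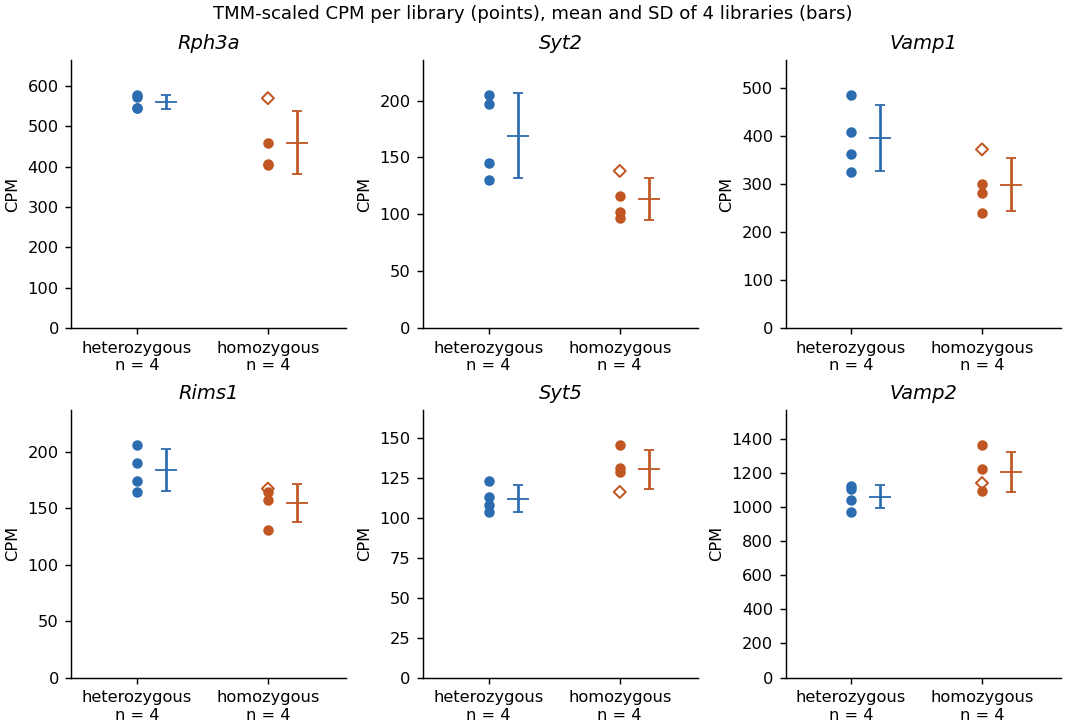
TMM-scaled CPM of 6 genes in each library (points; open diamond: the library labelled homozygous replicate 1), with the mean and SD of the 4 libraries of each labelled group as bars. For Rph3a, Syt2, Vamp1 and Rims1 homozygous replicates 2 to 4 lie below every heterozygous library and for Syt5 above, while the groups of Vamp2 overlap.

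The SNARE genes and the genes that recycle them had 0 of 7 called in either comparison. Vamp1, the vesicle SNARE of many cord and motor terminals, lies on the plus strand at chr6:125215551-125245964. It was at 325, 363, 485 and 407 CPM in heterozygous replicates 1 to 4 and 372, 239.7, 282 and 299 CPM in replicates 1 to 4 labelled homozygous. Homozygous replicates 2 to 4 lay below every heterozygous library and replicate 1 among them, and the change was -0.41 (SE 0.15, adjusted p = 0.23) with 8 and -0.53 (SE 0.14, adjusted p = 0.0881) with 7 libraries (edgeR). Its relative Vamp2, the main vesicle SNARE of the forebrain, was at 1125, 1109, 1044 and 973 CPM and 1142, 1223, 1368 and 1098 CPM. The groups of Vamp2 overlapped, and its log2 fold change of 0.21 (SE 0.09, adjusted p = 0.243) in 7 libraries by edgeR became -0.01 on the log2 TPM scale. Snap25 was at 3221, 3017, 2764 and 2352 CPM and 2864, 2633, 3001 and 2616 CPM, with all 4 values labelled homozygous inside the heterozygous range and a log2 fold change of -0.03 (SE 0.10, adjusted p = 0.901) by edgeR. Stx1a (syntaxin 1A) was at 207 ± 29.0 and 188 ± 19.1 CPM and Nsf at 971 ± 24.5 and 929 ± 49.1 CPM (SD, n = 4 and 4). For both the difference of the means was within the larger SD of the groups. Of the SNAP adaptors, Napa was at 213, 224, 209 and 188 CPM and 209, 227, 249.5 and 220.3 CPM, with overlapping groups and a log2 fold change of 0.16 (SE 0.08, adjusted p = 0.307) in 7 libraries by edgeR. Napb, the neuronal form, was at 546 ± 38.5 and 545 ± 13.9 CPM.

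Of the 11 genes of vesicle membrane and vesicle-bound proteins, 0 passed in either comparison. Sv2c, a vesicle glycoprotein found mainly in subcortical neurons, was at 103, 79.9, 115 and 129.9 CPM in heterozygous replicates 1 to 4 and 123, 88.8, 62.0 and 81.2 CPM in replicates 1 to 4 labelled homozygous. The groups overlapped, and the change was -0.27 (SE 0.22, adjusted p = 0.556) with 8 and -0.47 (SE 0.18, adjusted p = 0.197) with 7 libraries (edgeR). With the cortex covariate Sv2c passed in the 7 libraries (edgeR adjusted p = 0.0448). Synpr (synaptoporin, a relative of synaptophysin) stood at 87.7, 91.0, 85.5 and 92.5 CPM and 115, 111, 101 and 88.3 CPM. Its libraries labelled homozygous replicates 1 to 3 lay above all heterozygous ones and replicate 4 did not, with a change of 0.22 (SE 0.08, adjusted p = 0.224) in 8 libraries by edgeR. With 7 libraries the Synpr value was 0.17 (SE 0.08, adjusted p = 0.295) by edgeR and -0.06 on the log2 TPM scale. Syp itself was at 1546, 1677, 1575 and 1461 CPM and 1565, 1620.2, 1570.2 and 1639 CPM, and its log2 fold change was 0.03 (SE 0.06, adjusted p = 0.836) in 8 libraries by edgeR, with the sign turned by unscaled totals (-0.02) and log2 TPM (-0.14).

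The synapsins, which tether vesicles to each other, were at 495 ± 38.6 and 492 ± 56.1 CPM for Syn1 and 449 ± 63.7 and 407 ± 79.7 CPM for Syn2 (SD, n = 4 and 4). The means of each lay within 1 SD of each other. Syn2 was lowest in the library labelled homozygous replicate 1, at 296 CPM, and without that library its homozygous mean was 444 CPM. Sv2a and Sv2b were at 491 ± 14.4 and 553 ± 87.2 CPM in heterozygous and 474 ± 16.8 and 580.5 ± 33.9 CPM in libraries labelled homozygous. Syngr1, another synaptogyrin, was at 642 ± 32.2 and 586 ± 27.6 CPM, with -0.13 (SE 0.06, adjusted p = 0.317) in 8 libraries by edgeR, and Syngr3 at 130.4 ± 2.72 and 135 ± 11.3 CPM. Sncb (beta-synuclein) was at 245 ± 19.9 and 259 ± 21.8 CPM and Sypl, a synaptophysin relative also made outside neurons, at 58.2 ± 1.44 and 55.3 ± 8.45 CPM. None of these 8 genes had groups that did not overlap.

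Genes of membrane retrieval had 0 of 3 called. Dnm1 was at 1219, 1182, 1149 and 1131 CPM and 1182, 1307, 1336 and 1137 CPM in heterozygous and labelled homozygous replicates 1 to 4, with 0.11 (SE 0.08, adjusted p = 0.477) in 7 libraries by edgeR, which turned to -0.09 on the log2 TPM scale. Synj1 (synaptojanin 1, which strips the coat from recovered vesicles) was at 372 ± 41.7 and 356 ± 27.0 CPM (SD, n = 4 and 4). Amph (amphiphysin, which brings dynamin to the membrane) was at 307, 212, 199.9 and 217 CPM and 239.8, 234, 235 and 213 CPM, level but for heterozygous replicate 1. Synj1 too had its highest value there, at 421 CPM.

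Of the glutamate transporters neither passed, and both varied more among heterozygous mice than between the groups. Slc17a7 was at 1062, 1087, 840.0 and 747 CPM in heterozygous replicates 1 to 4 and 913, 1018, 1126 and 785 CPM in replicates 1 to 4 labelled homozygous. Slc17a6 was at 50.7, 45.7, 78.9 and 88.6 CPM and 68.4, 47.6, 44.0 and 66.6 CPM. Where one was high the other was low: heterozygous replicates 1 and 2 and homozygous replicates 2 and 3 had the most Slc17a7 and the least Slc17a6. Those 4 libraries were also the 4 with the highest sums of cortex genes and the lowest sums of Hox genes. The log2 fold changes were 0.06 (SE 0.16, adjusted p = 0.857) for Slc17a7 and -0.32 (SE 0.27, adjusted p = 0.547) for Slc17a6 in 7 libraries by edgeR, and that of Slc17a7 was negative on log2 TPM (-0.15), with unscaled totals and with the Hox genes as a covariate (-0.08).

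Related genes were also set against each other within each library, as log2 ratios of TPM, with no test. In every library the forebrain form was the more abundant: Syt1 was 10.6 to 26.8 times Syt2, Vamp2 2.79 to 6.62 times Vamp1 and Slc17a7 12.1 to 36.6 times Slc17a6. Of 12 pairs, 1 had groups that did not overlap with all 8 libraries, Rims2 to Rims1, beside 9.28% of single genes. Its log2 ratio was -2.07, -2.09, -2.01 and -1.88 in heterozygous replicates 1 to 4 and -1.73, -1.68, -1.78 and -1.63 in replicates 1 to 4 labelled homozygous. The TPM ratio was higher in all 4 libraries labelled homozygous, replicate 1 included, by 0.31 on the log2 scale. With CPM in place of TPM the difference was 0.24 and the groups overlapped. On that scale homozygous replicate 3 (Rims2 46.7, Rims1 157 CPM) lay just below heterozygous replicate 4 (52.2 and 175 CPM). In the library labelled homozygous replicate 1 Rims1 was at 168 and Rims2 at 53.9 CPM, and its Arf1 was at the heterozygous level.

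With 7 libraries 2 more pairs did not overlap, 3 of 12 in all, beside 18.5% of single genes. Vamp1 to Vamp2 was -2.17, -1.98, -1.48 and -1.63 in heterozygous replicates 1 to 4 and -2.73, -2.65 and -2.25 in homozygous replicates 2 to 4, lower by 0.73 in the mean. Napb to Napa was 0.40, 0.36, 0.23 and 0.33 and 0.19, -0.06 and 0.19. The ratio of Syt2 to Syt1 overlapped, with -4.23, -4.41, -3.53 and -3.41 in heterozygous and -4.08, -4.74, -4.67 and -4.27 in labelled homozygous replicates 1 to 4. Ratios of TPM do not depend on the scaling between libraries.

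**Figure D5:**
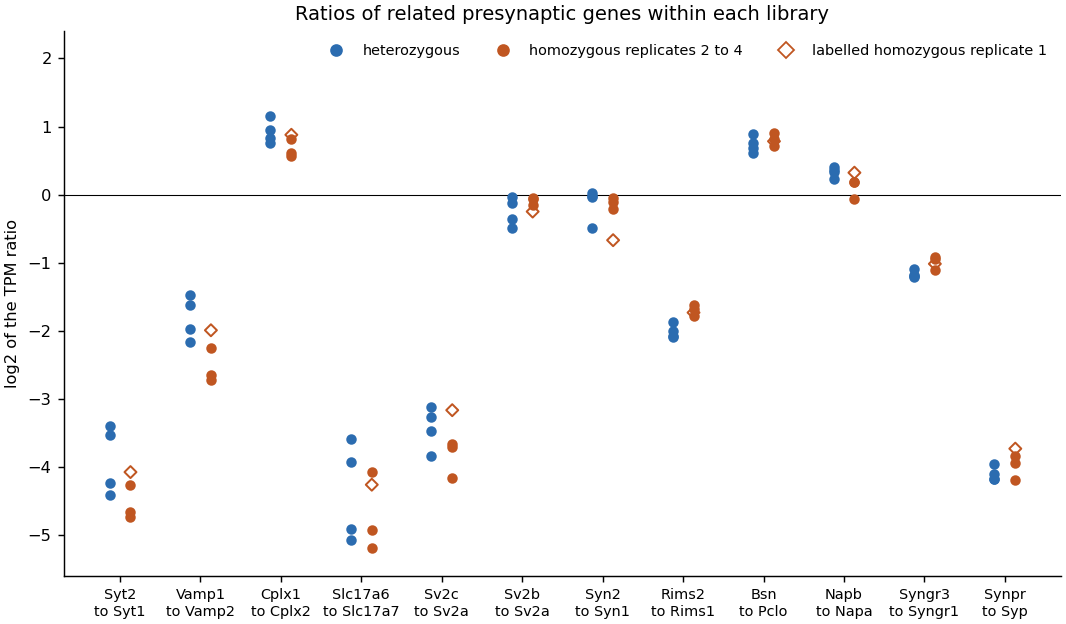
Log2 ratio of TPM for 12 pairs of related presynaptic genes within each library; heterozygous libraries are on the left and those labelled homozygous on the right of each pair (open diamond: replicate 1). Rims2 to Rims1 is the pair whose groups do not overlap over all 8 libraries, and Slc17a6 to Slc17a7 spans the widest range, from -5.20 to -3.60.

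Markers of neurons beside the members gave the following levels. The sum of 12 pan-neuronal genes was 6633 to 7280.2 CPM in heterozygous and 6401 to 7135 CPM in libraries labelled homozygous, with 0 of 12 called in either comparison. The 39 members summed to 19539 to 22039 and 19312 to 21768 CPM, overlapping too. The 7 motor neuron genes summed to 76.0 to 128 CPM in heterozygous and 76.7 to 108 CPM in libraries labelled homozygous. The 5 inhibitory neuron genes summed to 571 to 717 and 580 to 776 CPM. Of both lists 0 genes were called in either comparison, with 6 of 7 and 3 of 5 log2 fold changes negative in the 7 libraries. Genes of large, fast-firing neurons, in which Vamp1 and Syt2 are abundant, summed to 3089, 3223, 3414 and 3131 CPM in heterozygous replicates 1 to 4, to 2968 CPM in the library labelled homozygous replicate 1 and to 2207, 2185 and 2285 CPM in homozygous replicates 2 to 4. In the 7 libraries 4 of 11 of them fell by edgeR, against 0.67% of all genes, Scn1a (a sodium channel) and the neurofilament genes Nefl, Nefm and Nefh. With 8 libraries 0 of 11 were called, against 0% of all genes. Nefl, Nefm and Nefh, at 797, 751 and 234 CPM in heterozygous replicate 1, made up most of the sum. In that sum, as for Rph3a, Vamp1 and Syt2, homozygous replicates 2 to 4 lay below every heterozygous library. The library labelled homozygous replicate 1 also lay below every heterozygous library in the sum. For Rph3a, Vamp1 and Syt2 it lay within the heterozygous range. Without the neurofilament genes the sums of the groups overlapped. Of the 11 genes 10 had a negative log2 fold change in the 7 libraries, and Spp1 a positive one (0.57). Pvalb, Kcna1, Scn4b and Spp1 had overlapping groups. The part of these neurons in the values of Rph3a, Vamp1 and Syt2 was not tested. Schwann cell genes, of nerve roots, summed to 147 to 598 CPM in heterozygous and 40.1 to 88.6 CPM in all 4 libraries labelled homozygous. Of these genes 0 of 4 were called in either comparison.

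Of 109 other genes of the pathway, taken from lists of further release, retrieval, transporter, calcium channel and postsynaptic genes, 1 passed in 1 comparison. With 8 libraries 0 of 109 passed, and with 7 libraries 1 did, lower, against 0.67% of all genes. This was Synj2, a more widely made relative of Synj1, which was at 109.6, 89.6, 82.4 and 82.2 CPM in heterozygous replicates 1 to 4 and 62.9, 64.2 and 65.3 CPM in homozygous replicates 2 to 4, with 92.1 CPM in replicate 1 of that label. Synj2 fell by 0.50 on the log2 scale (edgeR adjusted p = 0.04997), a call lost in 10 of 19 alternatives (adjusted p from 0.000449 to 0.183). Leaving out any 1 of heterozygous replicates 2, 3 and 4 or homozygous replicates 2, 3 and 4 lost it. The 19 count the same fit under both names for the authors' 6 libraries and the 7 without heterozygous replicate 1.

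In the 7 libraries the medians were -0.10 for 42 other release genes, -0.06 for 20 other retrieval genes, 0.06 for 18 vesicle transporter and proton pump genes, -0.01 for 10 calcium channel genes and -0.0049 for 19 postsynaptic scaffold genes. Among them Cacna1a, the pore of the P/Q-type channel that triggers release, was at 121 ± 15.0 and 100.1 ± 14.2 CPM (SD, n = 4 and 3) and did not pass edgeR's test (adjusted p = 0.251). Cadps, which primes dense-core vesicles, was at 261 ± 18.6 and 219.9 ± 5.95 CPM (edgeR adjusted p = 0.116). Ston2, an endocytic adaptor for synaptotagmin, averaged 6.35 ± 1.59 and 3.46 ± 0.409 CPM, short of the threshold by edgeR (adjusted p = 0.0634). The authors' deposited table of called genes lists 185 genes, 110 lower and 75 higher. It holds 0 of the 39 members and 0 of the 109 other genes. The highest false discovery rate in it was 0.0936, above the threshold on adjusted p used here. In the edgeR fit made here on the authors' 6 libraries, Rph3a and Vamp1 were called lower. The reason for this difference from the authors' list was not tested.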

How the data were processed

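RNA of tissue labelled spinal cord from 8 mice was sequenced, 4 labelled heterozygous and 4 homozygous. Per the submitters' processing notes, cutadapt, STAR, RSEM, Picard and the build mm10 were used; their versions and the annotation release are not stated there. The authors deposited RSEM expected counts and TPM per gene and library, per the file headers. The authors' deposited edgeR table of called genes gives log2 fold changes and p-values, and the deposited sequencing report gives other values such as percent mapped, which were copied.

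Expected counts were rounded, and 8 of the 39 members (Syt4, Syt7, Syt11, Syp, Syn2, Unc13a, Pclo, Rab3gap1) shared reads with other genes in RSEM. The 2 groups were compared over all genes in edgeR 4.0.16 (R 4.3.3) by its robust quasi-likelihood test after filterByExpr and TMM scaling, with Benjamini-Hochberg adjusted p-values and a threshold of 0.05; all edgeR p-values here are from it. The steps were tested on simulated data. Library totals of 26321522 to 37879426 left all members well counted, so precision was set by the spread between mice. A repeat on 7 libraries left out homozygous replicate 1 for its Arf1 level. Members, lists and that choice were made with earlier results of these data known.

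Values per library are given for members past the threshold, those with the 5 smallest p in each direction of each comparison and the 5 with the highest median TPM; other members, Syn1, Amph, Slc17a6 and Slc17a7 among them, could be added. Of the other pathway genes up to 6 past the threshold were named; Ston2, Cadps and Cacna1a were chosen after their values were seen. Alternatives were other scalings and filters, DESeq2 1.42.0, limma-voom and limma 3.58.1 on log2(TPM + 1), a fit that was not robust, Xist, Hox or cortex covariates, the authors' 6 libraries and each library left out. The authors' 6 libraries are the 7 without heterozygous replicate 1, so these alternatives were the same fit. 2 region markers are not reported here and are in no sum or covariate. The Hox and cortex covariates, the 6 libraries and ratios with a library left out were added after seeing the data. No animals are paired in the labels, and replicate numbers follow accession order.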

Additional observations from a re-analysis of the deposited data

Results flagged for a closer look

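Amph, which encodes amphiphysin, was at 307 CPM in heterozygous replicate 1 and at 212, 199.9 and 217 CPM in the other 3 heterozygous libraries. The gap to the nearest of them was 0.841 of the range of the group, past Dixon's limit for 4 values. Of 78 groups of 4 libraries examined, 2 for each of the 39 members, 1 was picked out in this way, where chance picks out about 1 in 20.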

How the results depend on the processing

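Rph3a kept its call in 12 of 19 alternatives with 7 libraries, and no alternative turned its sign. With 8 libraries 1 member was called lower by DESeq2 and 1 with the cortex covariate, Syt2 in both, against 2.54% and 1.18% of genes. With a library left out of the 8 it was 0 to 1 lower, against 0 to 111 of all genes. With 7 libraries DESeq2 called 3 lower (Rph3a, Syt2, Vamp1) and 1 higher (Syt5), against 4.09% and 2.63% of genes. Log2 TPM gave 10 of 39 lower, a larger share than the 12.5% of all genes. The cortex covariate gave 3 lower (Rph3a, Sv2c, Syt2) and 1 higher (Syt5), against 2.0% and 1.32%. The authors' 6 libraries gave 2 lower, against 160 of 16425 genes. The Xist covariate gave 0, against 30 lower and 33 higher of 16560 genes, and the Hox covariate 0, against 39 and 28. With a library left out of the 7, members called were 0 to 2, against 3 to 263 genes lower and 3 to 139 higher.

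Several members that did not pass the test turned sign. With 8 libraries the log2 fold change of Slc17a7 became -0.0095 with unscaled totals, -0.13 on log2 TPM and -0.028 with the Hox covariate, and that of Syp -0.017 and -0.14 with the first 2. On log2 TPM Dnm1 became -0.068 and Napa -0.0045, and with the cortex covariate Syt1 0.032 and Snap25 0.027. With 7 libraries Slc17a7 became -0.00066, -0.15 and -0.076 and Syp -0.021 and -0.17 in the same settings. On log2 TPM Dnm1 became -0.085, Synpr -0.059 and Vamp2 -0.013, from 0.11, 0.17 and 0.21; Syt1 was 0.026 with the Xist and 0.017 with the cortex covariate, and the 6 libraries gave 0.047 for Syt1 and 0.020 for Snap25. With a library left out, values over 8 libraries were -0.052 to 0.13 for Slc17a7, -0.11 to 0.035 for Snap25, -0.00081 to 0.065 for Syp and -0.081 to 0.026 for Syt1, and over 7 libraries -0.054 to 0.19 for Slc17a7, -0.13 to 0.020 for Snap25 and -0.060 to 0.057 for Syt1. The cause was not tested. On log2 TPM the median of all genes moved to -0.14 with 8 and -0.17 with 7 libraries. The ratios of related genes moved by less than the spread between libraries in every alternative, but such a move could turn the sign of a group difference. That of Slc17a6 to Slc17a7 went from -0.24 to 0.023 without heterozygous replicate 4. For Syn2 to Syn1 it went from -0.13 to 0.0069 without the library labelled homozygous replicate 1. No paired analysis was possible because the labels pair no animals across the groups, and the replicate numbers used here only follow accession order.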

Other observations

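The TPM of the 39 members summed to 13092, 12980, 11869 and 12357 in heterozygous replicates 1 to 4, to 12069 in the library labelled homozygous replicate 1 and to 10716, 10825 and 10825 in homozygous replicates 2 to 4. On this scale homozygous replicates 2 to 4 lay below all other libraries, while on the TMM scale the sums overlapped. The median of all genes moved the same way on log2 TPM.

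Among vesicle genes outside the members, Slc30a3, the vesicular zinc transporter of forebrain terminals, was at 75.7 ± 10.2 CPM in heterozygous and 96.1 ± 15.0 CPM in homozygous replicates 2 to 4 (SD, n = 4 and 3), and Syn3 at 7.97 ± 1.19 and 10.8 ± 1.95 CPM. Neither passed edgeR's test (adjusted p = 0.178 and 0.166). Both were chosen after their values were seen.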
